A study of Arabidopsis thaliana with 16 samples.

Results

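Genes grouped under glucosinolate breakdown were examined in 10-day-old Arabidopsis thaliana seedlings. The set holds 10 genes, taken by name from the 32833 genes of the count table: the myrosinases TGG1, TGG2 and PEN2, the specifier and modifier genes ESP, ESM1, NSP1 and NSP5, and the nitrilases NIT1, NIT2 and NIT4. They are taken by name, not by a threshold on these counts, although earlier results of these data were known. Each of the 10 passed the expression filter in the comparisons that follow. NIT4 is counted with the nitrilases, although the substrate given for it below is beta-cyanoalanine.

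Transcripts were counted with QuantSeq, a 3′-end method that reads 1 fragment near the end of each transcript, in 16 libraries of whole seedlings, 4 in each of 4 groups. The groups were wild type (WT, Col-0) and the FERONIA mutant fer, each without treatment (control) or after 2 h with 12.5 µM arabidopside A, a galactolipid that carries oxylipin acyl chains and is made in wounded leaves. Seedlings of all groups had grown on plates and spent 2 h in liquid medium before treatment. FERONIA (FER) is a receptor kinase of the plasma membrane, and fer is fer-4, a single T-DNA insertion line, so that a trait of this line and the loss of FER cannot be told apart. The labels do not say that libraries came from separate plates or cultures, so p-values measure the spread between these libraries, which may be technical.

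Glucosinolates are sulfur-rich thioglucosides of the cabbage order. When tissue is damaged, myrosinases remove the glucose, and the unstable product rearranges to an isothiocyanate unless a specifier protein turns it into a nitrile or another product. Nitrilases hydrolyse nitriles to carboxylic acids. In intact leaves PEN2 acts on indole glucosinolates in defence against non-adapted fungi.

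The depth was 2843653 to 26358335 counts per library, and fer with arabidopside A replicate 2 was the deepest. FER (AT3G51550) had 356 to 793 counts in the 8 WT libraries and 0 to 14 in the 8 fer libraries. The 5 shoot marker genes summed to 9134 to 11706 CPM (library-scaled counts, TMM) in WT control and to 3334 to 6924 CPM in fer control, and to 8891 to 10392 CPM and 3643 to 6160 CPM after arabidopside A. The 7 root marker genes summed to 105 to 127 CPM in WT control, 129 to 172 CPM in fer control, 81.7 to 106 CPM in treated WT and 94.9 to 149 CPM in treated fer. No marker gene was at 0 throughout a group. The part of these differences in the results on fer below was not tested. In whole seedlings, fewer cells of a type and less RNA per cell cannot be told apart.

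The upstream sequences of TGG1 and TGG2, the members that followed each other most closely over the 16 libraries, and of PEN2 and NIT4, which varied most alike within fer, are shown first. TGG1 (AT5G26000) lies on chromosome 5 at 9079452 to 9082384 on the minus strand, and TGG2 (AT5G25980) lies on the same chromosome at 9072708 to 9075777 on the plus strand (TAIR10.1; RefSeq). The 300 bases before the annotated start of each are printed 5′ to 3′ on the gene's strand, chr5:9082385-9082684 for TGG1 and chr5:9072408-9072707 for TGG2. Capitals mark the exact runs of at least 12 bases that the windows share.
TGG1: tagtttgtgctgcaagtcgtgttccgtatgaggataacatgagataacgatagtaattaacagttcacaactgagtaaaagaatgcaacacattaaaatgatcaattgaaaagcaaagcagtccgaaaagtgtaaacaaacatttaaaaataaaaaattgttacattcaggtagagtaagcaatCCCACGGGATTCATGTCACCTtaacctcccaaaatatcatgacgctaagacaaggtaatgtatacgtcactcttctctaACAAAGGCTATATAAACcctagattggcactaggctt
TGG2: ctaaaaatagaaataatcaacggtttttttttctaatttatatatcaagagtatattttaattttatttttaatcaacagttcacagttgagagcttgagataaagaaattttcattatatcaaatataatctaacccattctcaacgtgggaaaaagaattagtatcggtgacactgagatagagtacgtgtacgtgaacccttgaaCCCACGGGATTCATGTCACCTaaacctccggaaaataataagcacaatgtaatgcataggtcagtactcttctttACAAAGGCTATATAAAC
The longer run has 21 bases and starts 116 bases before the start of TGG1 and 92 bases before that of TGG2. The shorter has 17 bases and starts 37 and 17 bases before them. Each run was found, on either strand, in 2 of 27443 promoter windows of this length, those of TGG1 and TGG2. The runs were picked because these windows share them, so 2 is the lowest count possible. Any bearing of the runs on the transcript levels was not tested.

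PEN2 (AT2G44490) lies at 18364652 to 18367835 on chromosome 2, and NIT4 (AT5G22300) at 7379187 to 7382025 on chromosome 5, both on the plus strand. Their 300-base windows are chr2:18364352-18364651 and chr5:7378887-7379186 (TAIR10.1; RefSeq). Capitals mark a W-box, TTGACC or TTGACT on either strand, the core bound by WRKY factors.
PEN2: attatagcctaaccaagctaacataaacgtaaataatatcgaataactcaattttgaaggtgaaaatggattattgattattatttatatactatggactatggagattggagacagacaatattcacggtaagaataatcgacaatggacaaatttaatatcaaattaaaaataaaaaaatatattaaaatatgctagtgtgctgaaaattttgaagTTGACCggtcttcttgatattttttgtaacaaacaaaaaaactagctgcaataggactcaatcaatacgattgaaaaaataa
NIT4: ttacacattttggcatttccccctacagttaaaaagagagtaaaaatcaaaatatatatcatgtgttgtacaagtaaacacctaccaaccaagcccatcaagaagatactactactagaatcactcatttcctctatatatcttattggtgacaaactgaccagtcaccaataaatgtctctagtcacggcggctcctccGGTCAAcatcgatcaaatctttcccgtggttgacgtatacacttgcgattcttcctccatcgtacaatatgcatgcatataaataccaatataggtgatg
The W-box began 82 bases before the start of PEN2 and 100 bases before that of NIT4. It was found in 4 of the 10 windows, with ESP and NSP1, and in 32.3% of all 27443. The G-box CACGTG, searched on both strands and without overlap with the W-box, was in 0 of the 10 windows and in 7.09% of all. These matches describe letters and not binding.

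The other members lie on chromosome 1 (ESP, AT1G54040, 20170715 to 20173949), on chromosome 3 (ESM1, AT3G14210, 4729399 to 4731847; NSP1, AT3G16400, 5566083 to 5568545; NIT2, AT3G44300, 15983199 to 15985535; NIT1, AT3G44310, 15986624 to 15989505) and on chromosome 5 (NSP5, AT5G48180, 19540937 to 19542760). NIT2 and NIT1 are neighbours. No annotated gene overlaps any of the 10. Because reads of 50 bases from the 3′ end were counted, the last 500 bases of each gene were compared with the genome. In NSP1, 164 of 451 windows of 50 bases (36.4%) also occur elsewhere, 152 of them in NSP4 and 19 in NSP3. The share of NSP1 reads that fall in such windows was not examined, so the effect on the NSP1 level is not known. In NIT2, 18 windows (3.99%) also occur in NIT1, and in the other 8 members there were 0. TGG1 and TGG2 are 83% identical there, with a longest shared run of 24 bases.

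Untreated fer seedlings had more transcript of 7 of the 10 genes than untreated WT seedlings, and less of 0. All 3 myrosinases and all 3 nitrilases rose, and of the 4 specifier and modifier genes NSP1 rose. Of the 17001 genes tested with edgeR, 15.7% were called higher and 27.2% were called in either direction. For 7 members, the same ones, every fer library lay above every WT library, against 16.2% of the genes tested. The median log2 fold change (log2FC) was 0.94 over the 10 genes and -0.03 over all genes tested.

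**Figure D1:**
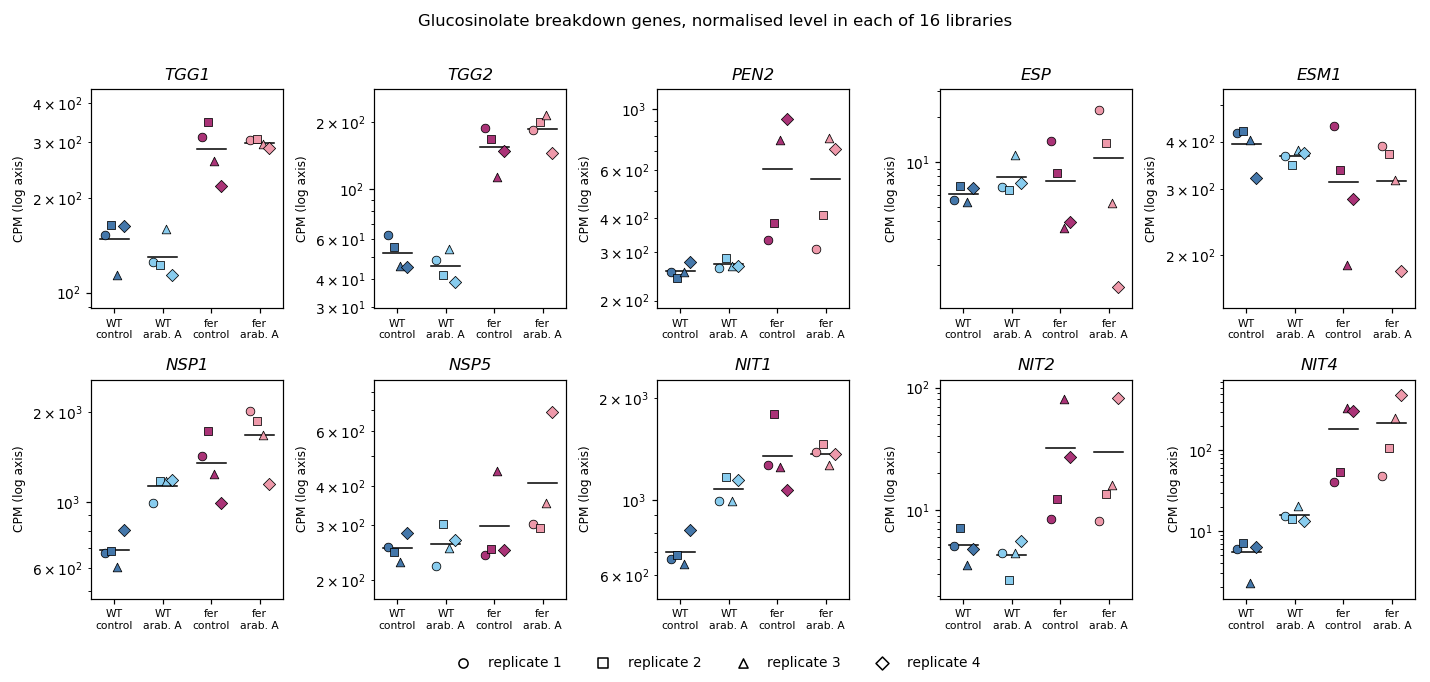
Level of each of the 10 genes (CPM, TMM-scaled, log axis) in the 16 libraries, by group, where arab. A is arabidopside A; points are libraries, shapes are replicate numbers and lines are group means. TGG1, TGG2, PEN2, NIT2 and NIT4 lie higher in all 8 fer libraries than in all 8 WT libraries. Fer replicates 3 and 4 lie above replicates 1 and 2 for PEN2, NIT2 and NIT4.

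TGG1, 1 of the main myrosinases of the shoot, had 152, 164, 113 and 163 CPM in WT control replicates 1 to 4 and 312, 349, 262 and 218 CPM in fer control. The lowest fer value lay above the highest WT value. The log2FC was 0.93 (standard error, SE, 0.17, adjusted p = 0.00218 from edgeR's quasi-likelihood test with Benjamini-Hochberg adjustment over all genes tested, as for all values that follow). TGG2, the second myrosinase of leaves and guard cells, had 62.8, 55.5, 45.8 and 45.2 CPM in WT control and 188, 167, 113 and 148 CPM in fer control. Its log2FC was 1.55 (SE 0.17, adjusted p = 0.000135). The counts of TGG2 per count of TGG1 were 0.278 to 0.413 in WT control and 0.432 to 0.68 in fer control, without overlap, and this difference was not tested. The 7 guard cell marker genes summed to 64.3 to 83.6 CPM in WT control and 67.1 to 91.3 CPM in fer control, ranges that overlap. Most of each sum was 1 of them, FAMA, at 40.7 to 57.5 CPM in WT control and 34.3 to 56.8 CPM in fer control. Of the 4 guard cell markers tested, 1 was called higher in fer and 0 lower, where 15.7% of all genes were called higher. The part of guard cells in the TGG1 and TGG2 levels was not tested.

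PEN2, the atypical myrosinase of indole glucosinolates, had 254, 241, 255 and 277 CPM in WT control and 331, 385, 771 and 921 CPM in fer control. All 4 fer values were higher than all WT values, but fer replicates 3 and 4 stood well above replicates 1 and 2. The log2FC was 1.22 (SE 0.32, adjusted p = 0.0199). PEN2 was no longer called without WT control replicate 1, 2 or 3 (log2FC 1.21 to 1.23, adjusted p = 0.0504 to 0.0555). The call was also lost without fer control replicate 3 (log2FC 1.1, adjusted p = 0.0767).

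NSP1, which directs breakdown to simple nitriles, was called higher among the specifier genes. It had 674, 683, 603 and 801 CPM in WT control and 1429, 1728, 1239 and 988 CPM in fer control, without overlap. The log2FC was 0.95 (SE 0.17, adjusted p = 0.00194). NSP5, a related nitrile specifier, had 228 to 283 CPM in WT control and 240, 252, 447 and 250 CPM in fer control. Only fer control replicate 3 lay outside the WT range, and the log2FC of 0.23 (SE 0.20) did not pass (adjusted p = 0.43).

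ESP, the epithiospecifier, which in some accessions turns alkenyl glucosinolates into epithionitriles, was low throughout. It had 5.55, 6.88, 5.37 and 6.69 CPM in WT control, from 24 to 36 counts, and 13.9, 8.46, 3.56 and 3.95 CPM in fer control. Fer replicates 1 and 2 lay above the WT range and replicates 3 and 4 below it, so that the log2FC was 0.30 (SE 0.39, adjusted p = 0.607). ESM1, which favours isothiocyanates over nitriles, had 421, 426, 405 and 321 CPM in WT control and 439, 337, 189 and 282 CPM in fer control. The groups overlapped (log2FC -0.35, SE 0.22, adjusted p = 0.262). Without fer control replicate 1, the ESM1 log2FC was -0.56 and passed (adjusted p = 0.0433).

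NIT1, a nitrilase that can act on breakdown nitriles, had 667, 687, 646 and 814 CPM in WT control and 1269, 1791, 1246 and 1067 CPM in fer control. The log2FC was 0.92 (SE 0.16, adjusted p = 0.0019). NIT2, its close relative next to it on chromosome 3, had 5.08, 7.13, 3.58 and 4.83 CPM in WT control and 8.43, 12.3, 80.3 and 27.3 CPM in fer control. Every fer value was above every WT value, and the highest fer value was 9.52 times the lowest. The log2FC of 2.66 carried a SE of 0.75 (adjusted p = 0.0347). Its call was lost when any 1 of the 4 WT control libraries or fer control replicate 4 was left out (log2FC 2.50 to 2.86, adjusted p = 0.0665 to 0.091). Without fer control replicate 3 the NIT2 log2FC was 1.65 and called (adjusted p = 0.015).

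NIT4, which detoxifies beta-cyanoalanine, a product of cyanide, and belongs to a separate branch of the nitrilases, changed most. It had 6.01, 7.13, 2.28 and 6.32 CPM in WT control, from 14 to 34 counts, and 40.4, 53.2, 337 and 304 CPM in fer control. The 2 lower fer libraries were thus already well above WT, and replicates 3 and 4 were higher still. The log2FC was 5.10 (SE 0.91, adjusted p = 0.00663), a fold of 34.4.

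The same contrast was made in the 8 libraries given arabidopside A, which share no library with the control comparison. Same-numbered fer libraries of both treatments deviated together (correlations 0.186 to 0.610), so this is not an independent repeat. Again 7 of the 10 genes were called higher in fer and 0 lower, where 17.3% of the 17234 genes tested were called higher and 30.7% in either direction. The 7 were the same genes. For 6 of them, all but NSP1, the groups did not overlap, against 17% of all genes tested. The median log2FC was 0.85 over the members and -0.00137 over all genes.

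**Figure D2:**
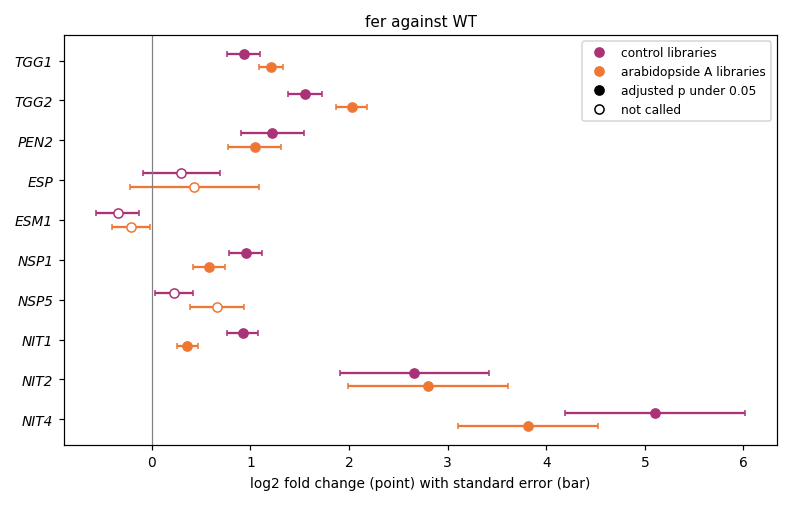
Log2FC of fer against WT for each gene, with its SE, in the 8 control libraries and in the 8 arabidopside A libraries; filled points passed an adjusted p of 0.05. The same 7 genes are filled in both comparisons, and NIT4 has the largest values, 5.10 and 3.81.

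TGG1 had 125, 122, 159 and 113 CPM in treated WT and 304, 306, 297 and 287 CPM in treated fer, a tight group (log2FC 1.21, SE 0.12, adjusted p = 0.000129). TGG2 had 48.5, 41.5, 54.4 and 38.8 CPM in treated WT and 183, 200, 214 and 145 CPM in treated fer (log2FC 2.03, SE 0.15, adjusted p = 2.27e-05). The counts of TGG2 per count of TGG1 were again apart, at 0.339 to 0.388 in treated WT and 0.506 to 0.721 in treated fer. PEN2 had 263 to 287 CPM in treated WT and 308, 410, 784 and 715 CPM in treated fer (1.04, SE 0.27, adjusted p = 0.0166). PEN2 was lost when fer arabidopside A replicate 4 was left out (log2FC 0.888, adjusted p = 0.0666).

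NSP1 had 990, 1172, 1170 and 1186 CPM in treated WT and 2019, 1870, 1682 and 1145 CPM in treated fer, where replicate 4 fell inside the WT range. Its log2FC was 0.58 (SE 0.16, adjusted p = 0.0186). It did not pass when any 1 of the treated WT libraries was left out (log2FC 0.512 to 0.595, adjusted p = 0.0525 to 0.0725). NSP5 had 222, 304, 254 and 269 CPM in treated WT and 303, 294, 352 and 691 CPM in treated fer (0.66, SE 0.27, adjusted p = 0.0937). ESP had 6.73, 6.47, 11.2 and 7.23 CPM in treated WT and 22.6, 13.5, 5.25 and 1.42 CPM in treated fer, the widest spread of the set, with a highest value 15.9 times the lowest (0.43, SE 0.65, adjusted p = 0.658). As in the control seedlings, ESP was above WT in fer replicates 1 and 2 and below WT in replicates 3 and 4. ESM1 had 346 to 380 CPM in treated WT and 388, 370, 317 and 182 CPM in treated fer (-0.21, SE 0.19, adjusted p = 0.437).

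NIT1 had 994, 1166, 992 and 1143 CPM in treated WT and 1385, 1462, 1267 and 1362 CPM in treated fer. The groups did not overlap, with a log2FC of 0.36 (SE 0.11, adjusted p = 0.0241). The call was lost without WT arabidopside A replicate 1, 3 or 4 or fer arabidopside A replicate 2 (log2FC 0.313 to 0.381, adjusted p = 0.0519 to 0.101). NIT2 had 4.42, 2.70, 4.45 and 5.62 CPM in treated WT and 8.19, 13.4, 16.1 and 81.6 CPM in treated fer. Its log2FC was 2.80 (SE 0.81, adjusted p = 0.0335), with the call lost when any 1 of the treated WT libraries was left out (log2FC 2.63 to 2.92, adjusted p = 0.0565 to 0.0753). Without fer arabidopside A replicate 4 it was 1.56 and called (adjusted p = 0.00109). NIT4 had 15.4, 14.0, 20.3 and 13.4 CPM in treated WT and 47.9, 106, 249 and 479 CPM in treated fer. All fer values were higher, by a log2FC of 3.81 (SE 0.71, adjusted p = 0.00601), or 3.07 without fer arabidopside A replicate 4 (adjusted p = 0.0128).

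The fer libraries did not vary in the same way for all members. In both treatments, PEN2, NIT2 and NIT4 were higher in fer replicates 3 and 4 than in replicates 1 and 2. By contrast, TGG1, ESP, ESM1, NSP1 and NIT1 were lower there, with narrow gaps for NIT1 and for treated TGG1. Over the 8 fer libraries, the log2 CPM of PEN2 and NIT4 correlated at r = 0.94 and that of ESM1 and NIT2 at r = -0.99, values given as a description, since libraries of the same number also resemble each other in other genes. Over the 8 WT libraries the same pairs had r = 0.44 and 0.42. TGG1 and TGG2 correlated at 0.96 over all 16 libraries and at 0.51 within fer.

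Because of this spread, a split of the fer libraries was made after the data were seen. It follows the line on which several members differ, which can narrow the spread within each part. Calls and adjusted p-values in these fits are therefore a description and not a further test. The comparisons were first repeated without fer replicates 3 and 4. In the control libraries 8 members were then called higher and 0 lower, where 12.1% of all genes tested were called higher. After arabidopside A it was again 8 and 0, with 14.3% of all genes called higher. The gene added in each was ESP, with log2FC values of 0.91 (adjusted p = 0.0187) and 1.12 (adjusted p = 0.00265). PEN2 was at 0.46 and 0.41, NIT2 at 0.98 and 1.39, and NIT4 at 3.12 and 2.31, all still called. TGG1 was at 1.14 and 1.23 and TGG2 at 1.76 and 2.06, also still called. Without fer replicates 1 and 2 instead, 8 members were called higher and 1 lower in the control libraries, where 24.1% of all genes were called higher and 20% lower. After arabidopside A it was 6 higher and 2 lower, with 22.5% and 18.6% of all genes. ESM1 was then called lower in both (-0.72, adjusted p = 0.00148, and -0.54, adjusted p = 0.0254), and NSP5 higher in both (0.49, adjusted p = 0.0494, and 1.02, adjusted p = 0.0114). ESP had -0.68 (adjusted p = 0.121) in the control libraries and -1.26 (adjusted p = 0.0344) after arabidopside A, so that its direction depends on which fer libraries are used. The treated NSP1 (0.34, adjusted p = 0.0764) and NIT1 (0.31, adjusted p = 0.0544) were no longer called. TGG1 was at 0.73 in the control libraries and 1.18 after arabidopside A, and TGG2 at 1.35 and 1.98, all still called.

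**Figure D3:**
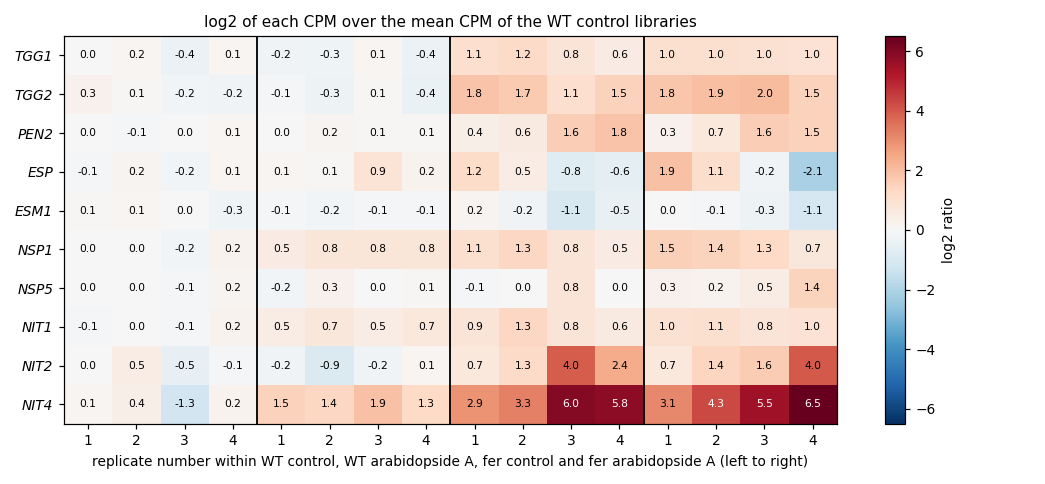
Log2 of each CPM over the mean CPM of the WT control libraries, for the 10 genes (rows) in the 16 libraries (columns, replicates 1 to 4 in each group from left to right). Across the fer libraries the myrosinases TGG1 and TGG2 run from 0.6 to 1.2 and from 1.1 to 2.0. NIT4 reaches 6.5 in fer with arabidopside A replicate 4, and ESP changes sign within fer.

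In WT, arabidopside A raised NSP1 and NIT1 of the 10 genes and lowered 0. Of the 18132 genes tested in the fit of all 16 libraries, 1.84% were called higher and 1.97% in either direction. NSP1 rose from 603 to 801 CPM to 990 to 1186 CPM (log2FC 0.71, SE 0.17, adjusted p = 0.0402), and NIT1 rose from 646 to 814 CPM to 992 to 1166 CPM (0.61, SE 0.14, adjusted p = 0.022). Neither pair of groups overlapped. The NSP1 call was lost when any 1 of WT control replicates 1 to 3, the treated WT libraries or fer arabidopside A replicate 2 was left out (adjusted p = 0.0506 to 0.174). The NIT1 call was lost when any 1 of WT control replicates 1 to 3 or WT arabidopside A replicates 2 and 4 was left out (adjusted p = 0.0741 to 0.107). Over the fits that left out 1 library, the log2FC ran from 0.652 to 0.792 for NSP1 and from 0.56 to 0.689 for NIT1. Both genes stayed called in a fit of the 8 WT libraries alone, where 5.13% of all genes were called higher. Across the 8 WT libraries the log2 CPM of both genes correlated at r = 0.98, a description that includes the shared change with treatment.

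NIT4 also lay higher in every treated WT library, 13.4 to 20.3 CPM, than in every WT control library, 2.28 to 7.13 CPM. In all, 3 members were without overlap and higher, against 7.01% of the genes tested. The NIT4 log2FC was 1.57 with a SE of 0.89 in the fit of 16 libraries, whose shared spread takes in the wide fer values, and was not called (adjusted p = 0.745). In a fit of the 8 WT libraries alone it was 1.58 and called (adjusted p = 1.26e-05), where 5.13% of all genes were called higher. The remaining 7 members had log2FC values from -0.24 (NIT2) to 0.38 (ESP), none called. TGG1 and TGG2 both had -0.19 (SEs 0.15 and 0.17), and PEN2 had 0.08 (SE 0.31).

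**Figure D4:**
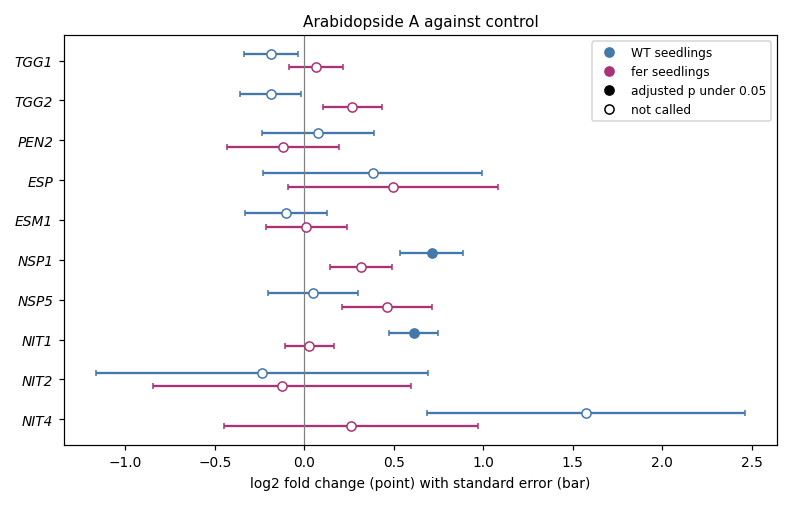
Log2FC of arabidopside A against control with its SE, in WT and in fer, from the fit of 16 libraries; filled points passed an adjusted p of 0.05. Only NSP1 (0.71) and NIT1 (0.61) in WT are filled.

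In fer, none of the 10 genes changed with arabidopside A in edgeR, DESeq2 or limma-voom, where 0.381% of the genes tested were called and 1431 had an unadjusted p under 0.05. The groups overlapped for all 10, where 3.16% of the genes tested were without overlap. Log2FCs ran from -0.12 for NIT2 to 0.50 for ESP. NSP1 had 0.32 (SE 0.17, adjusted p = 0.7), NIT1 had 0.03 (SE 0.14) and NIT4 had 0.26 (SE 0.71). The difference between the responses of fer and WT was tested directly and was called for 0 of the 10 by edgeR, DESeq2 or limma-voom, with 0.11% of all genes called and 889 at an unadjusted p under 0.05. It was furthest from 0 relative to its error for NIT1, at -0.58 (SE 0.19, unadjusted p = 0.00744, adjusted p = 0.813). For NSP1 it was -0.39 (SE 0.24) and for NIT4 -1.31 (SE 1.13).

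A further 16 genes of glucosinolate breakdown and its neighbourhood were examined as a list. In the control libraries 12 were tested, 7 were called higher in fer and 0 lower, where 15.7% of all genes were called higher. They were MBP1 (log2FC 5.13) and MBP2 (3.13), myrosinase-binding proteins; PEN3 (1.77), the transporter that acts with PEN2; PCS1 (1.69), phytochelatin synthase; NIT3 (1.19), the third gene of the NIT1 cluster; GSTU13 (0.92), a glutathione transferase of the PEN2 pathway; and MVP1 (0.92), a myrosinase-associated protein. MBP1 had 6.35 to 11.6 CPM in WT control and 123 to 488 CPM in fer control. PEN3 had 124 to 143 CPM in WT control and 301, 252, 697 and 555 CPM in fer control, with the higher values in the same fer libraries as PEN2. Under arabidopside A the same 7 genes were called higher in fer, again of 12 tested and with 0 lower, against 17.3% of all genes called higher. The MVP1 call (0.51, adjusted p = 0.0253) was lost without WT arabidopside A replicate 1 or 3 or fer arabidopside A replicate 2 (adjusted p = 0.0723 to 0.0908).

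In WT, 4 of 14 tested genes of this list rose with arabidopside A and 0 fell, where 1.84% of all genes were called higher. MBP2 rose from 5.55 to 9.48 CPM to 31.0 to 42.3 CPM (log2FC 2.32, adjusted p = 0.00182), MVP1 by 0.95 (adjusted p = 0.00206), NIT3 by 0.92 (adjusted p = 0.0262) and GSTU13 by 0.59 (adjusted p = 0.04), all on the log2 scale. The NIT3 call was lost when any 1 of the WT libraries other than WT arabidopside A replicate 3 was left out (adjusted p = 0.0503 to 0.106), and the GSTU13 call when any 1 of the WT libraries or fer arabidopside A replicate 2 was (adjusted p = 0.055 to 0.166). In the fit of the 8 WT libraries alone, PYK10, a beta-glucosidase of ER bodies (0.35, adjusted p = 0.00131), PEN3 (0.50, adjusted p = 6.05e-05) and MBP1 (1.19, adjusted p = 4.77e-06) were also called higher. In fer 0 of the 14 were called, and 0 differed in response between the genotypes. With same-numbered libraries of a genotype as a block, NSP4, a nitrile specifier that shares 3′ sequence with NSP1, rose in fer (0.93, adjusted p = 0.0246), and MBP2 responded less in fer than in WT (-1.64, adjusted p = 0.0238). In that fit MBP1 also rose in WT (1.21, adjusted p = 0.0398). The share of all genes called in that fit is not given here, so whether these calls stand out cannot be told.

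The gene outside the set whose log2 CPM followed each member best over the 16 libraries was found among 7598 genes with a mean of at least 20 CPM. It was CML41, a calmodulin-like protein, for both TGG1 (r = 0.94) and TGG2 (r = 0.96). It was GPAT3 for PEN2 (0.98), AT5G22440 for ESP (0.86), YAO for ESM1 (0.95), AT2G34810 for NSP1 (0.97) and TIL for NSP5 (0.94). For the nitrilases it was AT2G42760 for NIT1 (0.95), APG8A for NIT2 (0.98) and PMT5 for NIT4 (0.99). The libraries fall into groups and differ in depth, so these values describe likeness over these samples.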

How the data were processed

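QuantSeq 3′ libraries of whole seedlings were analysed. The authors deposited raw counts per gene, made by htseq-count in its intersection-nonempty mode from 50-base reads that STAR had placed on TAIR10. Versions and the strand option are not given in the sources used here. Every sample column was used (0 left out), and 6850 of 32833 genes had no count.

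Counts were TMM-normalized and tested with edgeR 4.0.16 (robust quasi-likelihood F test, filterByExpr, limma 3.58.1, R 4.3.3) over all genes passing the filter; a gene was called at a Benjamini-Hochberg adjusted p under 0.05. The mutant and WT were contrasted separately in the 8 control and the 8 treated libraries. Responses to arabidopside A came from 1 fit of 16 libraries. The standard error is the log2 fold change divided by the square root of F. DESeq2 1.42.0, limma-voom, other normalizations and filters, the replicate block and leaving out each library were alternatives. The script was tested on simulated data. Libraries of 1 group differed beyond sampling noise in all 24 pairs (chi-square per gene at least 2.71).

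The members and lists were chosen with earlier results of these data known. All 10 members, the called genes of the second list, FER and the gene most like each member (log2 CPM, prior count 2) are named. Same-numbered fer control and fer arabidopside A libraries deviated together (correlations 0.186 to 0.610 in all 4 pairs). However, only 2 of the 4 fer control libraries were most like the treated library of their own number. Whether the numbers pair the fer libraries thus cannot be told. Same-numbered WT control and WT arabidopside A libraries did not deviate together (mean -0.0081). Coordinates and sequences are from TAIR10.1, which matched 32548 identifiers; the counts were made on TAIR10.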

Additional observations from a re-analysis of the deposited data

Results flagged for a closer look

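In each of 44 sets of 4 libraries (each of the 10 genes and the total count, in each group) the highest or lowest library was compared with the others by Dixon's test. If values were normal and sets independent, chance would give such a library in about 1 in 20 sets, or 2.2 here, and 6 were found. The CPM were not log-transformed and members varied together within fer, so 6 beside 2.2 is a description only. NSP5 stood high in fer control replicate 3, at 447 CPM with the next library at 252 CPM, and in fer with arabidopside A replicate 4, at 691 CPM with the next at 352 CPM. NIT2 stood high in fer with arabidopside A replicate 4, at 81.6 CPM with the next at 16.1 CPM. ESP stood high in WT with arabidopside A replicate 3, at 11.2 CPM with the next at 7.23 CPM. NSP1 stood low in WT with arabidopside A replicate 1, at 990 CPM with the next at 1170 CPM. The total of fer with arabidopside A replicate 2 was 26358335 counts, with the next at 6860427.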

How the results depend on the processing

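Counts of called members in fer against WT stayed within 1.5 times of 7 under the other normalizations, filters and tools, but not every call held. NIT2 was lost with limma-voom (adjusted p = 0.123 in the control comparison and 0.152 under arabidopside A) and without a filter (0.0728 and 0.0771). Under arabidopside A, NSP1 (0.0662) and NIT1 (0.118) were lost with upper quartile normalization, and NIT1 (0.0592) in the fit of all 16 libraries. ESP had under 10 counts in 1 treated fer library, so a minimum of 10 counts in every library gave no value for it in comparisons with treated libraries. Leaving out each library gave 5 to 8 in the control comparison and 4 to 7 under arabidopside A. In the control comparison the number of all genes called, 4620 with every library, moved as well. It fell without any 1 of the WT control libraries or fer control replicate 3 or 4, and rose without fer control replicate 1 or 2. Where leaving out a WT control library cost the call, the log2 fold change was 1.21 to 1.23 for PEN2 (1.22 with every library). For NIT2 it was 2.50 to 2.86 (2.66 with every library). TGG1, TGG2, NSP1, NIT1 and NIT4 in the control comparison, and TGG1, TGG2 and NIT4 under arabidopside A, were called in all 18 alternatives each. The 2 calls for arabidopside A in WT became 0 with upper quartile normalization and 1 with limma-voom, and 0 to 2 on leaving out a library. Upper quartile normalization moved the median over all genes in the control comparison from -0.03 to -0.13. The replicate block gave 6 called members in the control comparison, where NIT2 was not called (2.21, adjusted p = 0.0536), and 6 under arabidopside A, where NIT1 was not called (0.363, adjusted p = 0.0581); it changed no other member's call, with 2, 0 and 0 called for the responses in WT, in fer and their difference. WT and fer libraries of a number did not deviate together.

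Values that were not called with all libraries changed sign under some settings, and the cause was not tested. These were ESM1 in the response of fer (-0.00438, upper quartile), ESP (-0.101) and NIT2 (-0.0285) in the difference of responses with limma-voom, and ESP there with the replicate block (-0.0129). Without fer replicates 3 and 4, NSP5 was -0.0544 in the control comparison and ESM1 was 0.0544 under arabidopside A. Without fer replicates 1 and 2, ESP was -0.677 and -1.26, with the second called in this split chosen after the data were seen. On leaving out each library, the log2 fold change ran from -0.251 to 0.565 for ESP and -0.0284 to 0.329 for NSP5 in the control comparison, from -0.122 to 0.779 for ESP under arabidopside A and from -0.0372 to 0.123 for NSP5 in the response of WT. In the response of fer it ran from -0.17 to 0.213 for ESM1, -0.0732 to 1.04 for ESP, -0.0681 to 0.181 for NIT1, -1.35 to 0.91 for NIT2, -0.458 to 0.725 for NIT4, -0.342 to 0.16 for PEN2 and -0.0428 to 0.16 for TGG1. In the difference of responses it ran from -0.0603 to 0.322 for ESM1, -0.448 to 0.662 for ESP, -1.12 to 1.15 for NIT2 and -0.413 to 0.0819 for PEN2. ESP, NIT2 and NIT4 rest on few counts in WT (10 to 105 per library), which limits their precision.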
